A study of Mus musculus with 5 samples.

Results

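The embryonic muscle fibre cells of the mouse limb were a small set: 57 cells of the forelimb and 28 of the hindlimb, 85 of 49801 kept limb cells, in a series of 84440 cell barcodes. They were chosen by a rule on UMIs (unique molecular identifiers, each standing for 1 captured RNA molecule). A kept cell had 100 to 9000 detected genes and at most 10% of its UMIs from mitochondrial genes. A fibre cell also had at least 2 UMIs of *Ckm* and at least 2 UMIs of 2 or more of the 4 partner genes *Myh3*, *Acta1*, *Ttn* and *Tnnt3*. The forelimb and hindlimb tissue came from male embryos, at embryonic day 15 by the labels, with 1 library per limb. The study's text varies on the limb age, so the exact day is uncertain. The rest of the series was 3 libraries of penis at postnatal day 6. For every sample the labels give the strain as C57BL/6N, while the study's methods name C57BL/6J, so the substrain is uncertain. The labels name no mutant allele and no treatment in any group. All tissues were broken up in a mechanical dissociator and passed through a strainer before droplet capture, and how the limbs of the embryos were divided over the libraries is not given in the sources used here. With 1 library per limb, and with cells chosen on the measured genes, no comparison here has a test: forelimb and hindlimb values stand side by side, intervals cover counting error only, and a gene is called higher or lower where it differed at least 2-fold in the same direction in both libraries.

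Skeletal muscle of the limb is built by progenitors that migrate in from the somites and, once in the limb, carry the factor *Pax7*. They turn on *Myod1* and *Myog*, leave the cell cycle and fuse into multinucleated fibres under the membrane proteins myomaker (*Mymk*) and myomixer (*Mymx*). The fibre then fills with sarcomeres, in which myosin thick filaments pull on actin thin filaments between Z-discs, titin (*Ttn*) acts as the spring, and troponin and tropomyosin make the pull depend on calcium. *Ckm*, the muscle creatine kinase, buffers ATP beside the filaments. Embryonic fibres use the developmental myosin heavy chains *Myh3* and *Myh8* before the adult ones appear.

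The start-site windows of *Ckm*, *Acta1*, *Ttn* and *Myh3* are shown because these rule genes help to define the set. Muscle transcription factors also read short motifs near such sites. The rule gene *Tnnt3* had no such window in the sequences used. Sequences are RefSeq windows of 250 bases before to 50 bases after the start, on the mouse build GRCm38.p6, given 5′ to 3′ on the gene's strand. Capitals mark the E-boxes CAGCTG and CAGGTG (the latter read on both strands) and the MEF2 site, the letters bound by MyoD family and MEF2 proteins. *Ckm* lies at chr7:19410844-19411143 on the plus strand, *Acta1* at chr8:123894726-123895025 and *Ttn* at chr2:76982498-76982797, both on the minus strand, and *Myh3* at chr11:67078050-67078349 on the plus strand.
Ckm: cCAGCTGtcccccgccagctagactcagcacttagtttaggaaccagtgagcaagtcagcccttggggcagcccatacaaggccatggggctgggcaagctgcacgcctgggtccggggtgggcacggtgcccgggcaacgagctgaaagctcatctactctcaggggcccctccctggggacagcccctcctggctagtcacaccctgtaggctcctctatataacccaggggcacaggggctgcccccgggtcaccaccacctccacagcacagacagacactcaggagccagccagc
Acta1: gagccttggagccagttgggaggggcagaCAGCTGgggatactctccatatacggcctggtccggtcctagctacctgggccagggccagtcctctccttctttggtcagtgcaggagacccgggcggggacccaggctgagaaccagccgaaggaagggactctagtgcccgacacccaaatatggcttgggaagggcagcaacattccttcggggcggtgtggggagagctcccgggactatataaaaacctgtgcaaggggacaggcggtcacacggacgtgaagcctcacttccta
Ttn: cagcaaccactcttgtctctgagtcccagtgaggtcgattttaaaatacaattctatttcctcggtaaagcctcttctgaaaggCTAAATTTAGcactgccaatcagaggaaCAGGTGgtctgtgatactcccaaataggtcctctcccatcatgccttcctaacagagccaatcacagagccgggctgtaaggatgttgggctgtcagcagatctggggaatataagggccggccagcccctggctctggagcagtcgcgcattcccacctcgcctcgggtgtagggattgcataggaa
Myh3: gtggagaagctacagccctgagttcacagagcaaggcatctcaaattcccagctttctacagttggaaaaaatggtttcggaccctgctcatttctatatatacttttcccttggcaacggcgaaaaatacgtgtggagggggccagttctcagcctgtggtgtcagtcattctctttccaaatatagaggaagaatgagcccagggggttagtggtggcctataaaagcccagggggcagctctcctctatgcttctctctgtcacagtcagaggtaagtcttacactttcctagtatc
Among these windows, *Ckm* and *Acta1* each held 1 CAGCTG and *Ttn* held 1 CAGGTG and 1 MEF2 site, while *Myh3* held none of the 3. Of 32851 such windows of 27025 genes, 16.3% held CAGCTG, 20.2% CAGGTG and 3.19% a MEF2 site. Of 101 windows of 83 genes of the contractile and calcium lists (83 of 112 listed genes matched), 31.7% held CAGCTG, 27.7% CAGGTG and 12.9% a MEF2 site. A match describes letters in the window and is no binding site.

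The limb libraries held 28266 and 25937 barcodes and 156060382 and 162335993 UMIs (forelimb first, here and below). Kept cells numbered 25865 and 23936. The libraries shared 203 barcodes, and 1 forelimb fibre cell was among them. Fibre cells made up 0.220% of kept forelimb cells (95% exact binomial interval 0.167 to 0.285%) and 0.117% of kept hindlimb cells (0.0777 to 0.169%). The same rule found 0 cells in each of the 3 penis libraries.

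Which cells did the rule take? *Acta1* with *Tnnt3* alone carried 24 forelimb and 11 hindlimb cells past the rule, and all 4 partners were present in 20 and 13. *Ckm* itself was sparse: the fibre cells held from 2 to 57 UMIs of it in the forelimb and 2 to 7 in the hindlimb, with a median of 3 in each. Just inside the limit, 22 and 12 cells had exactly 2 *Ckm* UMIs, with a median of 7532 and 8478.5 UMIs per cell. Just outside it, 47 and 23 cells had 1 *Ckm* UMI and enough partners, with a median of 8830 and 9736 UMIs, and 35 and 20 of them held a *Myog* UMI. Another 24 and 5 cells had 2 or more *Ckm* UMIs and no partner.

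The name of muscle fibre is that of the rule, and only part of the set met its markers in full. At least 2 UMIs of all 4 partners were held by 20 and 13 cells. After the values were seen, the cells were divided by *Ttn* and depth into 3 kinds. Cells with at least 2 *Ttn* UMIs, called *Ttn* cells below, numbered 32 and 16 (56.1% and 57.1%). They were deep, with a median of 10198.5 and 11315 UMIs and 2999 and 3169.5 genes per cell, with 1 forelimb exception of 989 UMIs. Their *Ttn* UMIs ran from 2 to 683 with a median of 33.5 in the forelimb, and from 20 to 1034 with a median of 53.5 in the hindlimb. *Myh3* was found in 28 of 32 and 16 of 16 of them. Not every *Ttn* cell held the other markers. The forelimb *Ttn* cell of 24637 UMIs had 2 UMIs of *Ttn*, 1 of *Acta1*, 0 of *Myh3* and *Myog*, and 39 of *Col1a1*. *Myog* was found in 31 and 16 of the *Ttn* cells and *Mymk* in 28 and 15. Whether these cells are fibres or fusing myoblasts was not tested.

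Cells with fewer than 2 *Ttn* UMIs and under 4000 UMIs in all, called shallow cells, numbered 20 and 11 (35.1% and 39.3%). Their medians were 855 and 873 UMIs and 458.5 and 490 genes. *Ttn* was found in 4 of 20 and 2 of 11 of them, *Myh3* in 4 and 2, and no shallow cell held more than 2 UMIs of either, so 2 of the 5 defining markers were at or near 0 in them. The remaining 5 forelimb and 1 hindlimb cells were deep with fewer than 2 *Ttn* UMIs (1 UMI in 2 of the 5), called deep cells low in *Ttn*, had no *Myh3*, and carried 8876 and 7443 CPM (a gene's UMIs scaled to a common library total) of the 8 listed mesenchyme genes. Cells of these 3 kinds are ranges cut from counts and are not called types.

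Mitochondrial and nuclear transcripts also stood at different medians in *Ttn* cells and shallow cells. Mitochondrial genes, which the rule limits from above, gave a median of 4.99% (1.62 to 6.97%) and 5.50% (3.30 to 9.94%) of the UMIs of *Ttn* cells, against 0.786% (0.0529 to 4.46%) and 0.836% (0.283 to 4.21%) in shallow cells. *Malat1*, a non-coding RNA retained in the nucleus, had a median of 56.5 UMIs (lowest 2, highest 368) and 84 UMIs (37 to 452) per *Ttn* cell, and 1 UMI (0 to 75 and 0 to 4) per shallow cell. *Meg3*, another nuclear non-coding RNA, had a median of 30 (0 to 358) and 57 UMIs (25 to 267) in *Ttn* cells and 0 (0 to 10 and 0 to 1) in shallow cells. The mitochondrial shares overlapped between the 2 kinds of cell in both libraries, and the UMI numbers of *Malat1* and *Meg3* overlapped in the forelimb and not in the hindlimb. These numbers follow in part from the split on depth. As a share of the cell's UMIs, the median of *Malat1* was 0.491% (highest 1.42%) and 0.719% (1.93%) in *Ttn* cells, and 0.135% (2.07%) and 0.0322% (0.414%) in shallow cells. Why the shallow barcodes are shallow was not tested.

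**Figure D1:**
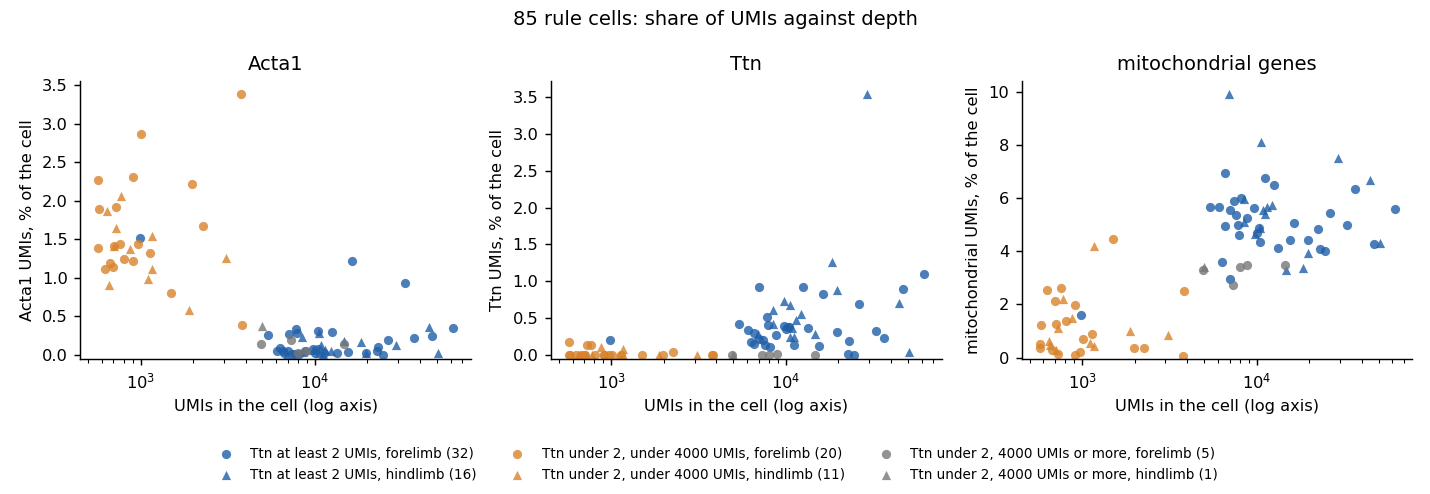
Each point is 1 of the 85 fibre cells (rule cells in the title); the x axis of each panel is the number of UMIs in the cell (log axis) and the y axis is the share of those UMIs, in percent, from *Acta1* (left), *Ttn* (middle) or mitochondrial genes (right). Circles are forelimb and triangles hindlimb cells. The shallow cells sit at the left with *Acta1* shares around a median of 1.43% and 1.37%, *Ttn* near 0 and mitochondrial medians of 0.786% and 0.836%, and the *Ttn* cells sit to the right of them, but for 1 forelimb *Ttn* cell of 989 UMIs.

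Muscle transcripts were also found at a low level in cells marked as other types, and whether by free RNA or by mixed droplets was not tested. Among cells marked as endothelial, 6.93% and 5.57% held an *Acta1* UMI, 9.03% and 6.78% a *Ttn* UMI, at a median depth of 7394 and 9441 UMIs. For every 100 UMIs of *Acta1*, endothelial cells held 577 and 317 UMIs of *Ttn*, macrophages 495 and 201, and *Ttn* cells 192 and 625. Shallow cells held 0.937 and 1.25. Shallow cells were set apart by low *Ttn* and all passed the rule through *Acta1* and *Tnnt3*, so their low ratio follows from how they were chosen and is a description only.

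Against all other kept limb cells, the fibre cells were higher in sarcomere and calcium-handling genes and lower in genes of mesenchyme, cartilage and blood. Of 14 tested fusion and surface genes, 7 were higher and 3 lower (*Cdh2*, *Cdon* and *Adgrb3*). Among the 10 of these that reached 10 CPM in the other cells, 4 were higher and 3 lower, with medians of -0.27 and 0.35 (log2). Of 9845 genes with at least 10 CPM in either set in both libraries, 568 were higher (5.77%) and 1132 lower (11.5%). The median gene lay at -0.28 and -0.35 on the log2(CPM + 5) scale. With each library centred on that median, the split was 814 higher and 618 lower. Because the rule read these same cells, the counts describe the set and support nothing by themselves.

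The leading genes after the rule genes were of the filament system. *Tnnc2*, the fast troponin C, stood at 3138 CPM in forelimb and 2150 CPM in hindlimb fibre cells, against 21.4 and 16.6 CPM in other cells. *Mylpf*, the fast regulatory light chain, stood at 8353 and 5954 CPM against 81.5 and 63.8 CPM. *Myl1*, an essential light chain, stood at 3557 and 3153 CPM against 46.7 and 36.6 CPM. The log2 differences were 6.89 and 6.64 for *Tnnc2*, 6.59 and 6.44 for *Mylpf*, and 6.11 and 6.25 for *Myl1*. *Il17b*, which encodes a secreted cytokine, was in the top 20 too, at 289 and 311 CPM against 4.81 and 4.85 CPM, and it entered only through its level in fibre cells.

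By list, and with the 5 rule genes left out of every count, most muscle genes that could be measured were called higher than in other cells. All 5 tested light chains, both other fast troponins and all 4 tested slow and cardiac troponins were higher. So were 7 of 9 tested genes of actins and the thin filament (1 lower, *Nebl*), 12 of 14 of the thick filament and M-band, 19 of 22 of the Z-disc and costamere and 21 of 22 of excitation and calcium. Many of these genes reached 10 CPM only in the fibre cells, where they had to be higher to be tested at all. Counting only genes that reached it in the other cells, a restriction chosen after seeing the data, the calls were 2 of 4 of the thick filament and M-band, 6 of 9 of the Z-disc and costamere and 6 of 7 of excitation and calcium, beside 305 of 9330 genes in all. Of 17 tested myogenic regulators, 9 were higher and 0 lower. The listed ribosomal protein genes were called in neither direction (0 of 14), with medians of 0.39 and 0.28 (log2).

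Lists of other cell types differed in how they stood. All 8 mesenchyme genes, all 7 cartilage genes and all 7 blood genes were lower, and so were 4 of 4 tested epidermis genes. The mesenchyme list still summed to 3574 CPM in forelimb and 1478 CPM in hindlimb fibre cells, against 9927 and 8968 CPM in other cells, and *Col1a1* held 495 and 127 UMIs, 112 of the 127 in the deepest hindlimb cell. Of 6 tested endothelial genes 2 were lower, and the list summed to 149.95 and 40.5 CPM against 228 and 218 CPM. Of 6 tendon genes 3 were lower, with a sum of 106 and 317 CPM against 200.1 and 168 CPM, so the hindlimb sum was the higher one. Of 3 tested smooth muscle and pericyte genes 1 was higher, *Abcc9*, and the list summed to 116 and 142 CPM against 107 and 89.4 CPM. Of 2 tested neuron genes 1 was lower. At least 2 UMIs in each of 2 markers of some other class, blood left aside, were found in 22 of 57 and 6 of 28 fibre cells: 15 and 5 *Ttn* cells, 2 and 0 shallow cells, and 5 and 1 deep cells low in *Ttn*. The same was found in 58.1% of forelimb and 61.0% of hindlimb *Myog* myoblasts. No doublet caller was run, and the part of mixed droplets in these levels was not tested.

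Macrophage markers were uneven between the libraries, with a sum of 196 CPM and all 6 members present in forelimb fibre cells, and 3.38 CPM from 1 UMI of 1 member in the hindlimb, against 433 and 395 CPM in other cells, and 3 of 6 were lower. Of the glial markers, *Sox10* and *Cdh19* were at 0 UMIs in both libraries. The glial genes that could be tested and were higher than in other cells were *Erbb3*, a neuregulin receptor that muscle also makes (60 and 39 UMIs), and *Foxd3* (24 and 4 UMIs), which could be tested only through its level in fibre cells. Of the 5 neuron markers, *Elavl4* and *Snap25* were at 0 in both. Blood genes summed to 4442 and 11304 CPM in fibre cells, against 59896 and 64660 CPM in other cells and 6163 and 6119 CPM in endothelial cells. Single cells carried much of them: 1 forelimb cell held 1162 and 1 hindlimb cell 1571 UMIs of the globin *Hbb-bs*, where the other fibre cells held at most 17.

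The second comparison set was the *Myog* myoblasts: 1980 and 1454 kept cells with a *Myog* UMI and fewer than 2 *Ckm* UMIs. *Myog* is the factor of committed, differentiating myoblasts. A *Myog* UMI was also found in 6.51% and 6.05% of endothelial cells and 5.61% and 4.34% of macrophages, so 1 UMI does not by itself mark a myoblast. Over all other kept cells, myoblasts included, the share was 7.69% and 6.09%, at a lower median depth of 4733.5 and 5453 UMIs. The myoblast set may therefore hold cells of other types, and how many was not tested. The median depth was 7062 and 8478.5 UMIs in fibre cells and 7429.5 and 8579.5 in myoblasts, but the lower quartile was 1011 and 1151 against 4809.5 and 5858, since the fibre set joins shallow cells with *Ttn* cells whose median was above that of myoblasts. Of 9233 genes, 334 were higher in fibre cells (3.62%) and 366 lower (3.96%). Centring on the median gene (-0.20 and -0.25, log2) turned the split to 443 higher and 177 lower. With the *Ttn* cells in place of all fibre cells, 359 of 9245 genes were higher (3.88%) and 538 lower (5.82%).

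**Figure D2:**
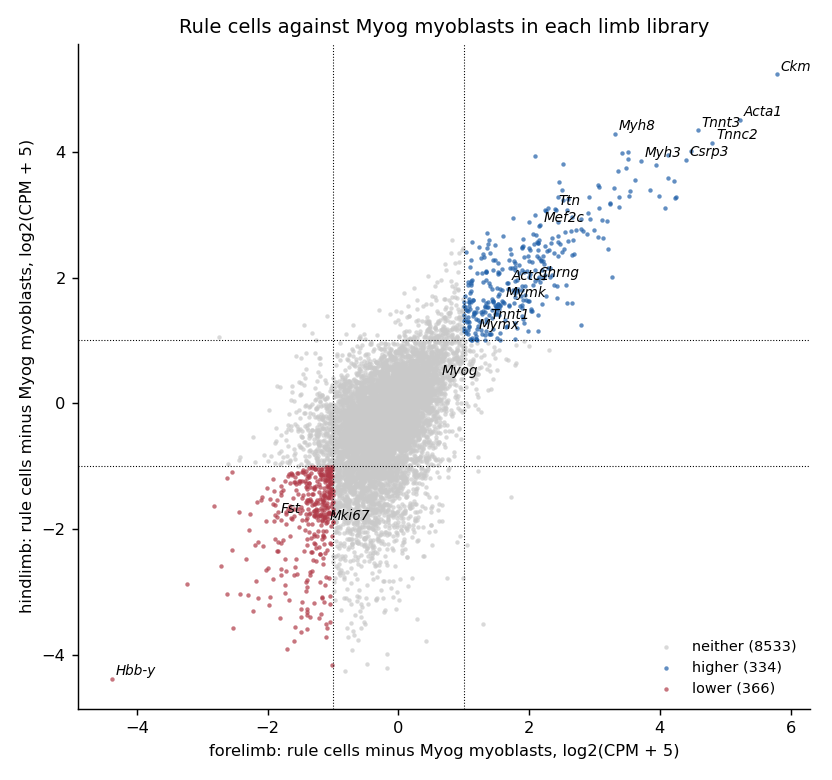
Each point is 1 of 9233 genes, with the log2(CPM + 5) difference of fibre cells (rule cells on the axes) minus *Myog* myoblasts in the forelimb library on the x axis and in the hindlimb library on the y axis; dotted lines mark 2-fold. The 334 genes higher in both libraries (blue) are led by *Ckm*, *Acta1* and *Tnnt3*, the 366 lower in both (red) end at *Hbb-y*, and *Myog* lies between the lines.

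Contractile genes led the genes higher than in myoblasts. Outside the rule genes, *Tnnc2* stood at 3138 and 2150 CPM against 108 and 117 CPM, and *Tnni2*, the fast troponin I, at 1616 and 1019 CPM against 67.7 and 58.2 CPM. *Mylpf* stood at 8353 and 5954 CPM against 475 and 493 CPM. Leaving out the rule genes *Myh3* and *Tnnt3*, both other tested heavy chains, all 5 tested light chains, both fast troponins and all 4 tested slow and cardiac troponins were higher. Among those that reached 10 CPM in myoblasts it was 1 of 1 heavy chain, 4 of 4 light chains and the same troponins. The slow heavy chain *Myh7*, found in 3 fibre cells of each library, was tested only through its level in fibre cells. *Myh8*, the perinatal heavy chain, held 260 and 236 UMIs, or 459 and 797 CPM against 41.4 and 36.1 CPM. Without those rule genes all 7 tested genes of the fast list were higher (median 3.53 and 3.58, log2), as were 8 of 11 of the slow list (2.08 and 2.69), where all genes tested had -0.20 and -0.25. Of the 7 and the 11, 7 and 8 reached 10 CPM in the myoblasts themselves, and 7 and 5 of these were higher, beside 210 of 8805 genes in all.

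The anchoring structures went with the filaments. Of the Z-disc and costamere list 17 of 21 tested genes were higher and 0 lower, and of the thick filament and M-band list, without *Ttn*, 11 of 14. Among the genes that reached 10 CPM in myoblasts the counts were 7 of 11 and 7 of 10. *Actn2*, the Z-disc crosslinker, stood at 510 and 739 CPM against 43.1 and 42.1 CPM. *Csrp3*, a Z-disc LIM protein, stood at 148 and 118 CPM against 2.28 and 3.40 CPM, and was tested only through its level in fibre cells. *Dmd*, the dystrophin gene that ties the cytoskeleton to the membrane, stood at 845 and 1357 CPM against 69.6 and 87.3 CPM, from 479 and 402 UMIs in 20 and 15 cells. *Smyd1*, a chaperone-linked methyltransferase of sarcomere assembly, stood at 187 and 273 CPM against 43.0 and 53.1 CPM.

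The machinery that couples excitation to calcium release was higher in most members. Of 28 listed genes 22 could be tested and 21 were higher than in myoblasts, with medians of 2.04 and 2.22 (log2). Of these 22, 16 reached 10 CPM in myoblasts, and 15 of the 16 were higher (medians 1.83 and 2.02). *Cacna1s* and *Trdn* were tested only through their level in fibre cells. *Cacna1s*, the voltage sensor of the T-tubule, held 37 and 19 UMIs, or 65.3 and 64.1 CPM against 1.75 and 2.98 CPM. *Ryr1*, the calcium release channel, stood at 206 and 270.0 CPM against 62.0 and 67.7 CPM. *Trdn*, triadin of the junction between them, stood at 120.0 and 189 CPM against 5.96 and 7.22 CPM. *Casq2*, a calcium store protein, stood at 183 and 246 CPM against 11.9 and 13.8 CPM. *Sln*, the small peptide that restrains the calcium pump, stood at 423 and 489 CPM against 22.8 and 30.7 CPM.

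At the neuromuscular junction list, 7 of 18 tested genes were higher and 1 lower, beside 3.62% higher and 3.96% lower of all genes. Among those that reached 10 CPM in myoblasts, 5 of 15 were higher, beside 210 of 8805 genes in all. The acetylcholine receptor genes *Chrna1*, *Chrnd* and *Chrng* were among the 7, with *Rapsn*, which clusters the receptors, and *Ache* and *Colq* of the synaptic cleft enzyme. *Chrng*, the embryonic receptor subunit, held 65 and 34 UMIs, or 115 CPM in each library against 23.0 and 26.1 CPM. *Nrg1*, which encodes neuregulin, was the lower one, at 10.6 and 30.4 CPM against 49.2 and 123 CPM.

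The regulators did not follow the contractile genes. *Myog* stood at 1357 CPM in forelimb fibre cells (Poisson interval 1262 to 1456) and 1046 CPM in the hindlimb (933 to 1170), against 892 and 798 CPM in the myoblasts that were chosen for it, a log2 difference of 0.60 and 0.39. *Myod1* stood at 98.8 and 159 CPM against 149 and 151 CPM. Of 17 tested regulators only *Mef2c* and *Vgll3* were higher and *Msc*, a repressor of the family, was lower. Over all genes the shares were 3.62% higher and 3.96% lower. *Mef2c*, which works with the MyoD family at muscle genes, stood at 907 and 2157 CPM against 197 and 298 CPM, log2 differences of 2.17 and 2.83.

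Fusion genes lay between. *Mymk* held 139 and 79 UMIs, or 245 and 267 CPM against 78.3 and 82.9 CPM (log2 1.59 and 1.63). *Mymx* stood at 584 and 564 CPM against 257 and 256 CPM (log2 1.17 and 1.13). Of 14 tested fusion and surface genes 5 were higher, the others being *Ncam1*, *Jam2* and *Tmem182*, and *Adgrb3* was lower. Among those that reached 10 CPM in myoblasts, 4 of 12 were higher. Beside them, 8 of 20 genes of dividing cells were lower and 0 higher, *Mki67* at 70.6 and 37.1 CPM against 158 and 153 CPM and *Ccnd1* at 30.0 and 3.38 CPM against 76.3 and 83.6 CPM. Over all genes 3.62% were higher and 3.96% lower. *Cdkn1a*, the cyclin kinase inhibitor p21, stood at 402 and 466 CPM against 144 and 148 CPM. It was the only higher gene of 10 tested on the cell cycle exit list. Of the others, *Btg2* was lower and 8 were called in neither direction, and the list had medians of 0.27 and 0.26 (log2).

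**Figure D3:**
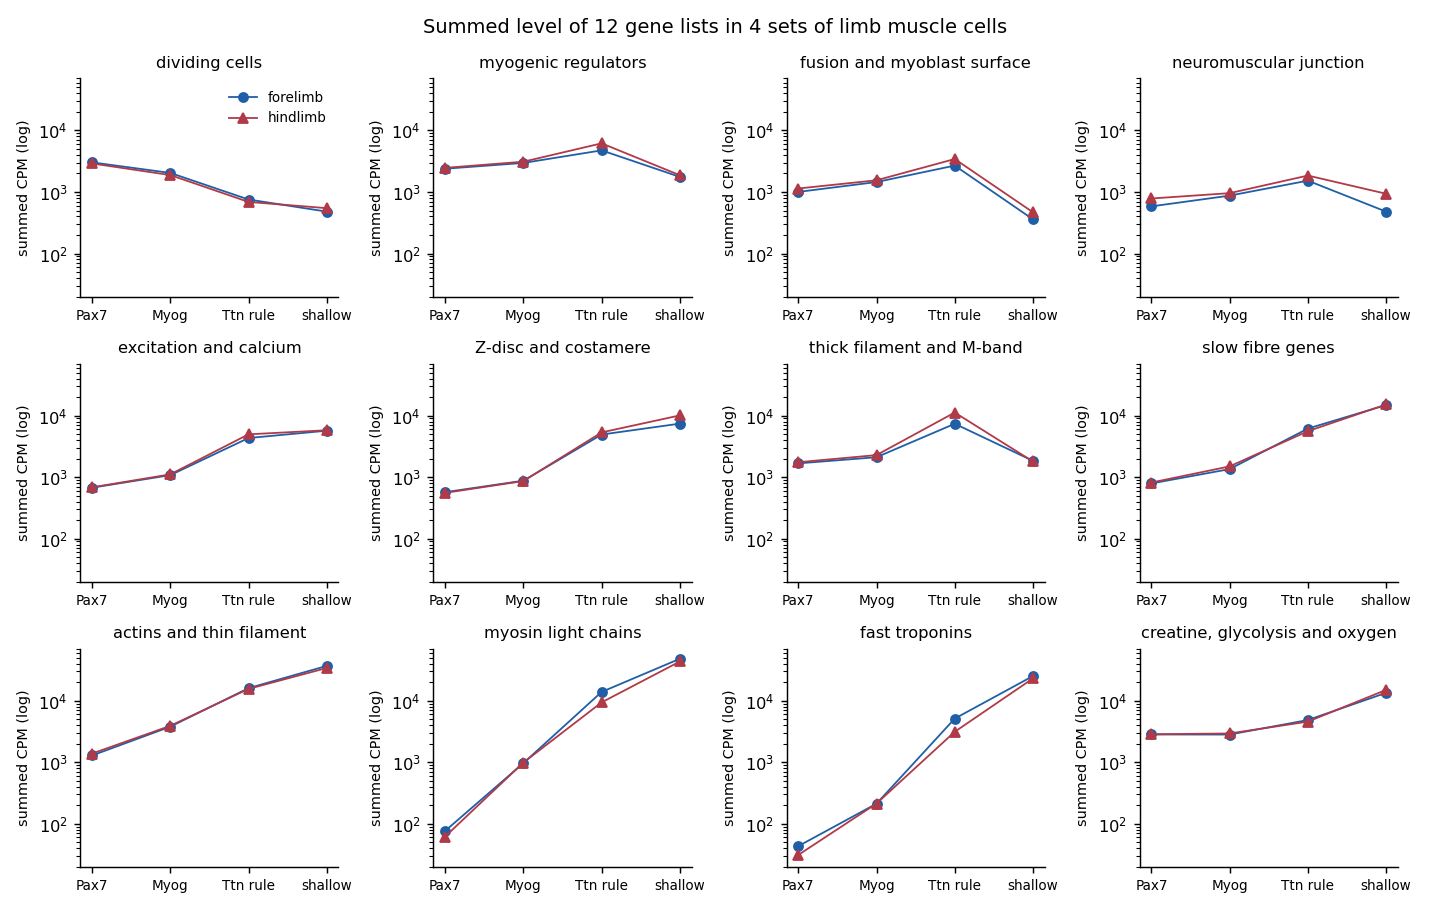
Each panel sums the CPM of 1 gene list (log y axis) in *Pax7* cells, *Myog* myoblasts, *Ttn* cells (marked *Ttn* rule) and shallow fibre cells of the forelimb (circles) and hindlimb (triangles); lines join the sets for the eye and are no time course. The fast troponin sum goes from 212 and 213 CPM in myoblasts to 5121 and 3128 CPM in *Ttn* cells, with the rule gene *Tnnt3* giving 835 and 578 CPM of these, while the sum for dividing cells goes from 2041 and 1883 CPM to 755 and 689 CPM. Rule genes were left in the sums, *Acta1* with the actins and *Ckm* with creatine, so those panels are partly set by the choice of cells. *Ttn* gave 4780 and 8220 of the 7364 and 11204 CPM of the thick filament and M-band list in *Ttn* cells.

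Deeper cells show more genes, so the shares of cells with a UMI were also set at 2000 UMIs per cell, leaving out 1 *Ttn* cell, 149 and 53 myoblasts and 31 and 3 *Pax7* cells (*Pax7* present, *Myog* absent). A *Myog* UMI was found in 41 of 57 fibre cells of the forelimb (71.9%, exact interval 58.5 to 83.0%) and in 21 of 28 of the hindlimb (75%, 55.1 to 89.3%). Those without one were mostly shallow cells and deep cells low in *Ttn*: among *Ttn* cells the share was 96.9% and 100%. At 2000 UMIs it was 87.7% and 88.4% of *Ttn* cells, against 61.3% and 57.0% of the myoblasts, all of which had been chosen with a UMI.

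*Mymk* was found in 28 of 32 and 15 of 16 *Ttn* cells before thinning. At 2000 UMIs the share was 44.3% and 41.4%, against 12.5% and 12.6% of myoblasts and 0.0924% and 0.168% of *Pax7* cells. *Myod1* was at 21.4% and 29.7% of *Ttn* cells, 21.3% and 20.9% of myoblasts and 13.7% and 13.5% of *Pax7* cells. *Myf5*, the early factor of the family, was at 1.90% and 6.395% of *Ttn* cells, 0.984% and 1.33% of myoblasts and 16.1% and 16.5% of *Pax7* cells. *Mki67*, the proliferation marker, was at 6.95% and 1.71% of *Ttn* cells, 16.6% and 15.8% of myoblasts and 32.4% and 30.6% of *Pax7* cells. The unthinned *Mki67* share of *Ttn* cells was 21.9% and 6.25%, from 7 and 1 cells. Forelimb *Ttn* cells of 22633 and 24637 UMIs gave 9 and 8 *Mki67* UMIs, and held 5 and 2 UMIs of *Ttn* and 27 and 39 of *Col1a1*. The hindlimb cell gave 8 and held 112 UMIs of *Col1a1*. The part of mixed droplets in these shares was not tested. In endothelial cells, which should lack *Mymk*, its thinned share was 0.535% and 0.132%.

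**Figure D4:**
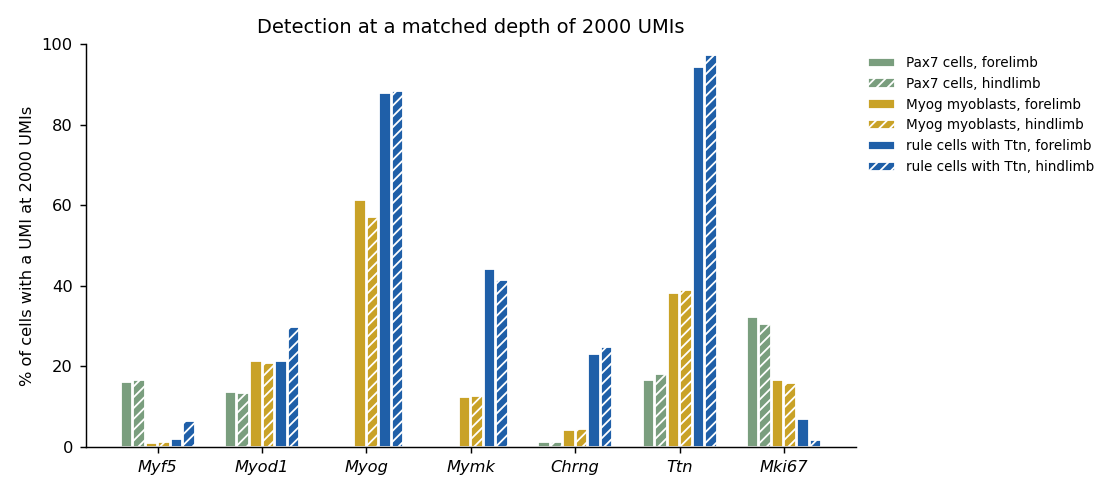
Bars give the percentage of cells with at least 1 UMI of each gene once every cell is set to 2000 UMIs, for *Pax7* cells (green), *Myog* myoblasts (yellow) and *Ttn* cells (rule cells with *Ttn*, blue); plain bars are forelimb and hatched bars hindlimb. *Myog* is 0 in *Pax7* cells by definition. *Mymk* goes from 12.5% and 12.6% in myoblasts to 44.3% and 41.4% in *Ttn* cells, and *Mki67* from 16.6% and 15.8% to 6.95% and 1.71%.

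Of 18 tested genes of creatine, glycolysis and oxygen besides *Ckm*, 6 were higher than in myoblasts, where 3.62% of all genes were. Among those that reached 10 CPM in myoblasts it was 4 of 15. The 6 included *Eno3*, the muscle enolase, at 348 and 334 CPM against 25.6 and 29.5 CPM, and *Pgam2*, the muscle phosphoglycerate mutase, at 256 and 249.8 CPM against 26.5 and 35.7 CPM. Of 12 tested mitochondrial genes only the muscle isoforms *Cox6a2* (273 and 192 CPM against 14.3 and 13.8 CPM) and *Cox8b* (40.6 and 33.8 CPM against 3.04 and 2.34 CPM) were higher. *Cox8b* was tested only through its level in fibre cells, which leaves 1 of 11. Of 20 tested genes of the muscle secretion and growth list, the non-coding RNA *Rian* and *Fndc5* were higher. *Fst*, an inhibitor of myostatin, and *Sema3a* were lower. *Fst* held 6 and 2 UMIs, or 10.6 and 6.75 CPM against 51.3 and 36.0 CPM. Of 12 stress genes 5 were lower, where 3.96% of all genes were, and 0 higher, *Fos* at 298 and 149 CPM against 604 and 508 CPM.

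Within families of related genes, the share of each isoform was taken over the family's UMIs. UMIs here come from 3′ ends, but if intronic reads were counted the shares could also depend on gene length, which was not tested. Of 1125 and 891 myosin heavy chain UMIs, *Myh3* gave 75.6% (73.0 to 78.1%) and 70.0% (66.9 to 73.0%), and *Myh8* 23.1% and 26.5%. *Myh7*, the slow heavy chain, gave 1.07% and 2.81%. The adult fast chains *Myh2* and *Myh4* had 0 UMIs in both libraries, which allows up to 0.327% and 0.413% by the exact interval, and *Myh1* had 1 and 3 UMIs. Of the UMIs of the embryonic receptor subunit *Chrng* and its adult counterpart *Chrne*, *Chrng* gave 65 of 66 and 34 of 34. Myoblasts held *Myh3* at 68.9% (67.2 to 70.7%) and 75.5% (73.8 to 77.1%) and *Myh8* at 25.8% and 19.4%, and *Chrng* gave 394 of 401 and 368 of 368 UMIs there. The pooled share of *Myh3* was higher in fibre cells in the forelimb and lower in the hindlimb. As a mean over cells it was 68.8% and 68.1% in fibre cells against 48.7% and 58.3% in myoblasts. *Myh1* gave 0.0889% (0.00225 to 0.494%) and 0.337% (0.0695 to 0.981%) of heavy chain UMIs in fibre cells and 2.48% (1.93 to 3.13%) and 2.63% (2.05 to 3.31%) in myoblasts, a lower share in fibre cells in both libraries. The heavy chains summed to 1985 and 3007 CPM in fibre cells against 160 and 186 CPM in myoblasts, so a lower share need not be a lower level.

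In other families the fibre cells held a mixture. Among *Acta1*, *Actc1* and *Acta2*, the cardiac actin *Actc1*, which embryonic skeletal muscle uses first, gave 54.0% and 66.4%, and the skeletal actin *Acta1* 30.5% (29.3 to 31.8%) and 19.3% (17.8 to 20.8%). In myoblasts *Acta1* gave 3.62% and 3.58%. The fast *Tnnt3* gave 22.4% and 19.9% of troponin T UMIs, against 3.41% and 3.39% in myoblasts. The fast *Tnni2* gave 48.4% and 40.6% of troponin I, and the fast calcium pump *Atp2a1* 59.7% and 51.1% of its family against 26.2% and 25.5% in myoblasts. The rule counts *Myh3*, *Acta1* and *Tnnt3*, so their shares are partly set by it. In *Ttn* cells those of *Acta1* and *Tnnt3* were lower: *Acta1* at 25.2% and 14.5%, *Tnnt3* at 18.4% and 14.5%.

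**Figure D5:**
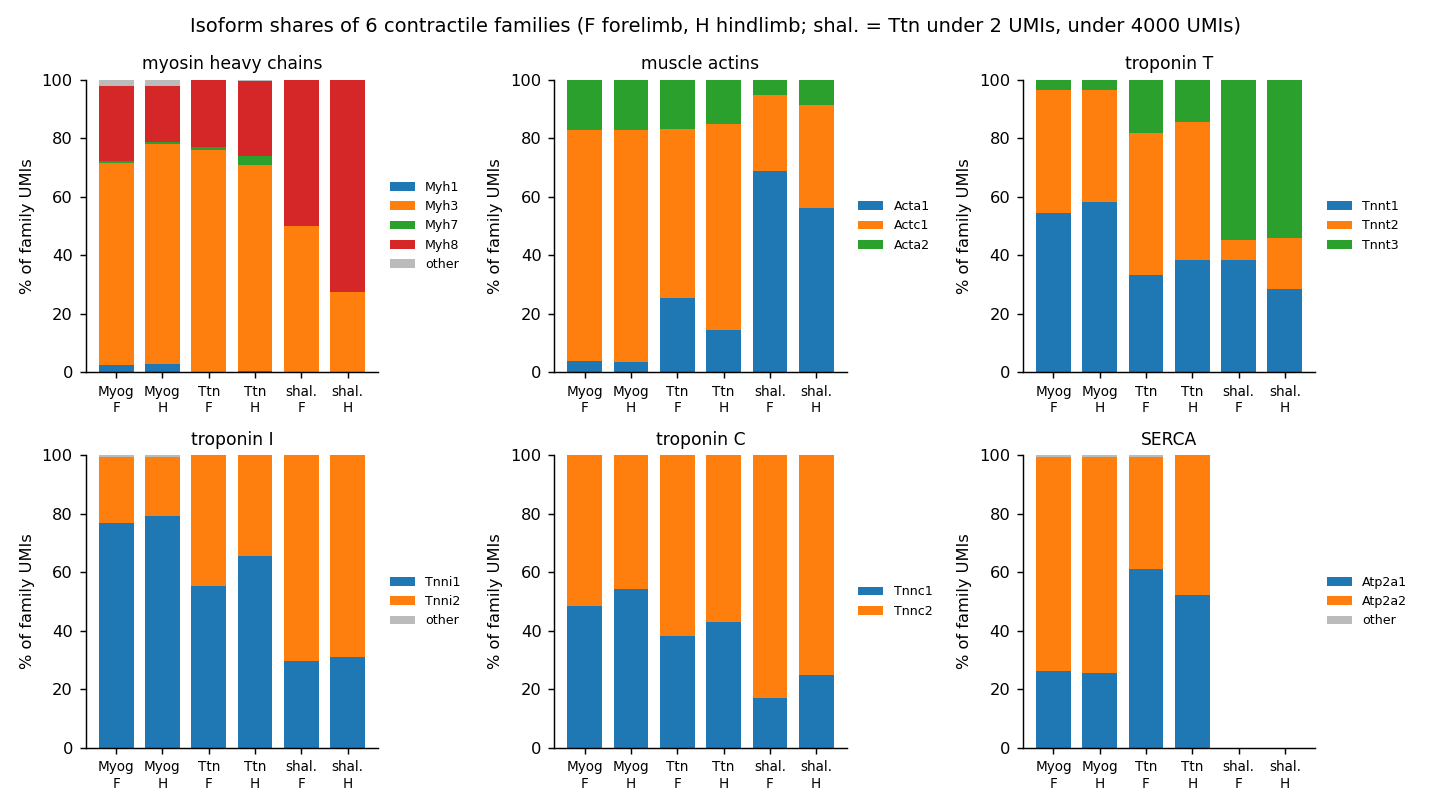
Stacked bars give the share of each gene, in percent of the UMIs of its family, in *Myog* myoblasts, *Ttn* cells and shallow cells (shal.) of the forelimb (F) and hindlimb (H). *Acta1* goes from 3.62% and 3.58% of muscle actins in myoblasts to 25.2% and 14.5% in *Ttn* cells and 68.8% and 56.1% in shallow cells; shallow cells had no UMI of the calcium pump family (SERCA), so those bars are empty, and only 10 and 11 heavy chain UMIs.

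Slow fibres could hardly be looked for at this number of cells. At least 2 *Myh7* UMIs were found in 2 forelimb cells, of 12577 and 46905 UMIs, and 2 hindlimb cells, of 29217 and 44861 UMIs. Their slow list without *Myh7* summed to 9953 and 9058 CPM, against 5195 and 4603 CPM in the cells with no *Myh7* UMI, and their fast list to 20225 and 23219 CPM against 15496 and 9877 CPM. Both lists were higher in them, and the 2 sets differed in depth as well. The fast sums include the rule genes *Myh3* and *Tnnt3*.

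The highest genes of the shallow cells by level were contractile genes, led by *Mylpf*, *Myl1*, *Acta1* and *Tnnc2*, together with ribosomal protein genes, *Tpt1*, *Eef1a1* and *Gm42418*. *Gm42418* lies over ribosomal RNA sequence and often reports ribosomal RNA in such libraries. It was the fourth highest, at 13230 and 12560 CPM, was not among the 20 highest genes of *Ttn* cells, and stood 2.11 and 2.45 above *Ttn* cells (log2). The light chain list summed to 48044 and 43383 CPM, the fast troponins to 25141 and 23018 CPM and the 15 listed ribosomal protein genes to 57117 and 66011 CPM, against 13890.5 and 9390 CPM, 5121 and 3128 CPM, and 50167 and 44212 CPM in *Ttn* cells. As shares of the cell, *Mylpf* had a median of 2.60% and 2.43% of the UMIs of a shallow cell against 0.505% and 0.408% in *Ttn* cells, and *Acta1* 1.43% and 1.37% against 0.0747% and 0.0655%. A cell of so few UMIs could pass the rule only where the rule genes took a large share of it, so the shares are descriptions. Of 7572 genes with enough counts, 269 were higher in shallow cells (3.55%) and 3265 lower (43.1%). The sums behind them were 25019 and 12816 UMIs, so 1 UMI was worth 40.0 and 78.0 CPM and a floor of 3 counts 119.9 and 234 CPM. Of the 3265 lower genes 2928 had 0 UMIs in both shallow sums, and only 71 stood at 2 or more times that floor in the *Ttn* cells of both libraries. Of the 269 higher genes 103 had at least 3 UMIs in both.

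Contractile genes were found among both the 71 and the 103. Among the 71 were *Ttn* and *Myh3*, with *Neb*, the thin filament ruler (1 and 2 UMIs in shallow cells, against 1289 and 2216 CPM in *Ttn* cells), *Dmd* (0 and 1 UMI against 958 and 1440 CPM), *Ncam1*, *Mef2c*, *Mymx*, *Meg3*, *Tmsb4x*, *Ncl* and 10 mitochondrial transcripts. Among the 103 were *Myl1*, *Tnnc2*, *Tnni2*, *Csrp3*, *Eno3* and *Sln*, and also *Gm42418*, *AY036118* and *Lars2*, whose counts are likewise known to take up ribosomal RNA reads. The part of RNA quality in the calls was not tested. *Sln* stood at 4197 and 3433 CPM, from 105 and 44 UMIs, against 247 and 348 CPM. *Myf6*, the late factor of the MyoD family, had only 7 and 2 UMIs in shallow cells, and 3 and 0 in *Ttn* cells. Ribosomal protein genes were called in neither direction (0 of 14).

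Gene length moved with these calls. The 71 lower genes had a median gene span of 108 kb and a median exonic length of 9.09 kb, and the 103 higher genes 8.11 kb and 1.97 kb. All genes tested had medians of 29.05 kb and 4.84 kb, and those at 2 or more times the floor in *Ttn* cells, from which the 71 but few of the 103 came, 6.05 kb and 2.77 kb. The part of gene length in the calls was not tested.

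Forelimb and hindlimb fibre cells were compared library against library. Of 2765 genes with at least 50 UMIs over both sets together, 61 were higher in the forelimb by 2-fold with intervals that did not overlap (2.21%) and 87 lower (3.15%). Where 1 *Ckm* UMI was enough, the split turned to 148 higher and 34 lower of 4577 genes. Without the deepest cell of each library, a choice made after seeing the data, the counts were 120 and 132, with 51 and 68 of the first calls among them. Without cells that held markers of another class, blood counted as one, 13 and 4 cells were left and 203 genes could be compared, so the counts of 1 and 4 are not on the same footing. With blood not counted, which left 35 and 22 cells and 778 genes, they were 3 and 23. Most leading genes higher in the forelimb were not muscle genes, while those higher in the hindlimb included *Musk* and *Sntb1*. Single cells carried several leading genes of each direction. *Cpa3*, a mast cell protease, held 144 UMIs against 1, and 95.8% of them came from 1 forelimb cell. *Cma1*, another mast cell protease, held 108 against 4, with 95.4% from 1 cell. *Kirrel3*, a cell adhesion gene of the fusion and surface list, held 17 against 78. Of its hindlimb UMIs 89.7% lay in 1 cell, and its log2 difference was 0.040 without the deepest cells. *Hbb-bt*, a globin, held 474 against 772, with 94.8% of the hindlimb UMIs in 1 cell.

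Other leading genes were spread over more cells. *Col6a1*, a collagen, held 161 UMIs in 21 forelimb cells against 6 in 3 hindlimb cells (log2 3.52, against 0.33 in all other kept cells). *Lum*, the matrix proteoglycan lumican, held 83 in 15 cells against 4 in 2, and *Sema5a*, a semaphorin, 49 in 16 against 1. Without cells that held markers of another class, blood not counted, the log2 difference of *Col6a1* was 1.02, that of *Sema5a* 1.02 (from 3.45) and that of *Lum* 1.92 (from 3.03). In the other direction, *Musk*, the receptor kinase of the neuromuscular junction, held 29 UMIs in 15 cells against 52 in 14, or 51.2 CPM (34.3 to 73.5) against 176 CPM (131 to 230), a log2 difference of -1.68. It was -1.23 without those cells, -0.99 where 1 *Ckm* UMI was enough, short of 2-fold, and it reversed where blood was counted too, among 13 and 4 cells. *Ccdc141* held 66 UMIs in 25 cells against 112 in 16, or 116 CPM against 378 CPM, and *Sntb1*, a syntrophin of the dystrophin complex, 84.7 CPM against 294 CPM. *Fras1*, *Ssx2ip*, *Itgb6* and *Dner* were higher in the hindlimb too, from 11, 12, 11 and 9 hindlimb cells against 14, 14, 14 and 17 forelimb cells, though *Dner* stood at -0.99 where 1 *Ckm* UMI was enough. Of the hindlimb *Fras1* UMIs 60.5% came from 1 cell. Without cells that held markers of another class, blood not counted, *Fras1* stood at -0.07 and *Itgb6* at -0.72, both short of 2-fold. The same log2 ratio of *Musk*, *Ccdc141* and *Sntb1* was 0.02, -0.02 and -0.06 in all other kept cells, and -0.28, -0.35 and -0.43 in myoblasts. The mesenchyme list, at 3574 CPM in forelimb and 1478 CPM in hindlimb fibre cells with all 8 members present in each, moved with these calls, and its part was not tested.

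The genes that mark limb identity were near the counting floor. *Tbx5*, a forelimb factor, held 7 UMIs in forelimb and 0 in hindlimb fibre cells, and *Pitx1*, a hindlimb factor, 0 and 11. In all other kept cells *Tbx5* stood at 52.5 and 2.90 CPM and *Pitx1* at 0.985 and 64.4 CPM. Of 25 genes of limb position 7 could be tested against other cells, with 1 higher, *Lbx1*, the factor of migrating muscle progenitors (10 and 5 UMIs), which was tested only through its level in fibre cells, and 1 lower, *Hoxd13*. Over all genes 5.77% were higher and 11.5% lower.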

How the data were processed

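Single cells of 3 penis, 1 forelimb and 1 hindlimb library were captured with a 10x 3′ v3.1 kit. The authors aligned the reads to mm10 with Cell Ranger 7.0.0 and deposited UMI counts per gene and barcode. Whether intronic reads were counted is not given in the sources used here. The report covers the 2 limb libraries, with 156060382 and 162335993 UMIs, and the penis libraries served for 1 check. Groups came from the labels.

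Cells were kept at 100 to 9000 genes and at most 10% mitochondrial UMIs. The members, the gene lists and the tests were chosen with earlier results of these data known. UMIs were summed over the cells of a set and library and scaled to CPM. Ratios are log2 of CPM plus 5. A gene entered a comparison with at least 10 CPM in either set in both libraries and was called at a 2-fold difference in the same direction in both. Between limbs, a gene needed 50 UMIs in all, a 2-fold difference and exact Poisson intervals that did not overlap. Genes named are the rule genes, members of the lists, the 20 highest and 10 lowest of each comparison ranked by the smaller of the 2 ratios, and the 10 leading genes each way between limbs. *Malat1* and *Meg3* were named after their values were seen. So were genes picked by level or by call in shallow cells, respiratory genes picked by symbol, and the 2 genes with opposite directions in the limbs. Shares carry 95% exact (Clopper-Pearson) binomial intervals, which cover counting error only, as do the Poisson ones. Thinned shares are the expected share of cells with a UMI when 2000 UMIs are drawn from each cell. Gene lengths came from GENCODE vM21 and start-site windows from RefSeq. The scripts were tested on simulated data. Tables were handled with pandas 2.3.3 and numpy 2.4.6, intervals came from scipy 1.17.1 and plots from matplotlib 3.10.9, all under Python 3.11.15. No doublet caller was run. 1 listed marker gene is not reported here.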

Additional observations from a re-analysis of the deposited data

Results flagged for a closer look

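Outside the limb libraries, the penis libraries held 10, 11 and 5 kept cells with at least 2 *Ckm* UMIs, although 0 of them passed the fibre rule. Those cells held 0 *Acta1* UMIs. In the forelimb, 7 further barcodes passed the fibre rule but stood above the mitochondrial limit, with 10.4% to 77.5% of their UMIs from mitochondrial genes, against 0 such barcodes in the hindlimb.

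The difference between fibre cells and other cells had opposite directions in the 2 limbs for 2 genes, and this was not tested. *Spon2* stood at -1.89 in the forelimb and 1.64 in the hindlimb (log2), with 0 and 12 UMIs in fibre cells, 11 of them in 1 cell. *Ccl21a* stood at 2.06 and -1.25, with 45 and 1 UMIs, 44 of them in 1 cell.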

How the results depend on the processing

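Of the values of named genes under the alternatives, 1226 were still called in the same direction, 75 lost the call without reversing and 19 reversed. The size of the changes was not part of that label. These genes led the comparisons in the main setting, with rule genes among them, so the tally is no test of stability. An upper limit of 9500 genes in the hindlimb left the counts of called genes unchanged. Most of the 75 and the 19 belonged to the forelimb against hindlimb comparison. Counts of genes and shares of cells or isoforms moved in 71 cases, past a set fold or out of the counting interval, and did not in 115. The share of fibre cells, 0.220% in the forelimb and 0.117% in the hindlimb, became 0.112% and 0.0627% with 3 partners asked for, 0.402% and 0.213% at 1 *Ckm* UMI, 0.135% and 0.0668% at 3, 0.02765% and 0.01415% with cells chosen after thinning (6 and 3 cells), and 0.0503% and 0.0167% without cells mixed with another class (13 and 4 cells). Restricting to *Ttn* cells and leaving blood out of the mixed classes were chosen after seeing the data. They gave 0.124% and 0.0668%, and 0.135% in the forelimb. The share with *Myog* became 100% with 3 partners, 83.3% in the forelimb after thinning (5 of 6 cells) and 96.9% and 100% in *Ttn* cells. Genes higher than in other cells numbered 368 at 50 CPM and 706 to 1007 with 1 library left out, the larger value without the forelimb here and below. Genes lower numbered 3418 (thinned), 618 (centred), 1839 (mean of cells), 497 (50 CPM), 3720 (no mixed cells), 2736 (blood allowed) and 1616 to 2688 with 1 library. Against myoblasts, genes higher numbered 213 at 50 CPM and 462 to 720 with 1 library, and genes lower 646 (3 partners), 2763 (thinned), 177 (centred), 1044 (mean of cells), 128 (50 CPM), 588 (pseudocount 1), 2983 (no mixed cells), 1884 (blood allowed) and 707 to 1792 with 1 library. Forelimb-higher genes numbered 36 (3 partners), 148 (1 *Ckm* UMI), 18 (thinned), 168 (no filter), 1 (no mixed cells), 3 (blood allowed) and 120 without the deepest cell of each library, also chosen after seeing the data. Hindlimb-higher genes numbered 34 (1 *Ckm* UMI), 4 (thinned), 149 (no filter), 4 (no mixed cells), 23 (blood allowed) and 132 (deepest cell left out). As means over cells, *Acta1* was 40.95% and 33.0% of its family, *Atp2a1* 52.3%, *Myh3* 68.8%, *Tnnc2* 78.4% and 70.8%, *Tnni2* 51.8% and 47.8%, and *Tnnt3* 34.2% and 31.9%. In *Ttn* cells *Acta1* was 25.25% and 14.55%, *Tnnc2* 61.8% and 56.9%, *Tnni2* 44.6% and 34.4%, *Tnnt3* 18.4% and 14.5%, and *Myh3* was 73.0% in the forelimb without its deepest cell. Directions (log2) reversed after thinning for *Ldb3* against myoblasts (-1.25) and, between limbs, for *Cma1* (-4.215), *Col14a1* (-3.29), *Col6a1* (-0.69), *Vcan* (-0.69), *Itgb6* (0.19), *Scx* (3.48), *Sntb1* (0.73) and *Ssx2ip* (2.60). Without mixed cells they reversed for *Cma1* (-1.48), *Fras1* (4.15), *Kirrel3* (3.46) and *Musk* (4.79), and with blood allowed for *Cma1* (-0.12), *Col14a1* (-1.25) and *Scx* (0.21). *Cma1* also reversed with 3 partners (-0.24), and *Kirrel3* (0.040) and *Scx* (0.10) without the deepest cells. The thinned and unmixed settings keep few cells by construction, and the cause of the other changes was not tested. With 57 and 28 cells, genes under about 1 UMI in a few cells could not be compared.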

Other observations

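Genes of the respiratory chain were looked at after the values were seen, by symbol. Of 102 nuclear genes whose symbols start with Nduf, Sdh, Uqcr, Cox or Atp5, 96 could be compared between shallow and *Ttn* cells, with 26 higher and 2 lower in shallow cells, where 3.55% of all genes were higher and 43.1% lower, and medians of 0.87 and 0.84 (log2) where all genes had -1.57 and -2.20. The values over all genes lie partly at a counting floor, since 2928 of the 3265 lower genes had 0 UMIs in both shallow sums. The gap to them is therefore a description only. *Cox5a* stood at 1159 and 858 CPM in shallow cells, against 536 and 406 CPM. Of the 13 transcripts of the mitochondrial genome, 0 were higher and 11 lower in shallow cells, with medians of -2.23 and -2.54. *mt-Co1* stood at 1359 and 1170 CPM in shallow cells, against 5511 and 5609 CPM. Between *Ttn* cells and myoblasts the nuclear genes were called in 3 of 98 cases (2 higher, 1 lower), beside 3.88% higher and 5.82% lower of all genes, with medians of 0.12 and 0.07, and the mitochondrial transcripts in 0 of 13.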
